A study of Mus musculus with 4 samples.

Results

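The genes described here are 9 of the 17519 genes in the deposited expression table, chosen by symbol: Il1a, Il1b, Il1rn, Il18, Il1r2, Casp1, Nlrp3, Pycard and Aim2. All 9 were present. The samples were mouse (C57Bl.6) spleen cells positive for MHC class II, obtained with magnetic beads. A single library came from resting cells taken at isolation (day 0, no polysaccharide A), and 3 libraries came from cells cultured 24 h in medium with 10% serum and 50 µg/ml polysaccharide A (PSA), the capsular sugar of the gut commensal Bacteroides fragilis (day 1). The cells are a mixture of every spleen cell type that carries MHC class II, and cells cultured without PSA were not analysed here, so PSA and a day of culture cannot be told apart. The labels do not state how many mice or cultures stand behind the day 1 libraries, so p-values measure only the spread among libraries, which could be technical.

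Interleukin-1 (IL-1) alpha, IL-1 beta and IL-18 are inflammatory cytokines made as precursors without a secretion signal. An inflammasome is a cytosolic complex in which a sensor such as NLRP3 or AIM2 recruits the adaptor ASC (the product of Pycard), which in turn gathers and activates caspase-1. Caspase-1 then cuts the IL-1 beta and IL-18 precursors and the pore-forming protein gasdermin D. In macrophages and dendritic cells the IL-1 beta precursor is made only after a priming signal, typically through a Toll-like receptor, while the IL-18 precursor is present beforehand. IL-1 is held in check by a soluble receptor antagonist (from Il1rn) and by a decoy receptor (IL1R2, from Il1r2). Transcript levels say nothing of precursor cutting or of complex assembly.

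The 250 bases before the transcription start, from RefSeq (GRCm38.p6), are shown for the neighbouring cytokine genes Il1a and Il1b, and for Il18 and Aim2, the genes with the largest measured fall and rise among the 9. They are written 5′ to 3′ on the gene's strand, with matches to 4 motifs in capitals.
Il1a (chr2:129309973-129310222, minus strand): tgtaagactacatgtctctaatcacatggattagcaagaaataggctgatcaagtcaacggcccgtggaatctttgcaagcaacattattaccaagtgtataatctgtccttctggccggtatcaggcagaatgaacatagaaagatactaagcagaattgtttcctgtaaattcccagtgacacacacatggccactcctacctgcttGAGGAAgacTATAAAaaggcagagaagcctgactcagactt
Il1b (chr2:129371140-129371389, minus strand): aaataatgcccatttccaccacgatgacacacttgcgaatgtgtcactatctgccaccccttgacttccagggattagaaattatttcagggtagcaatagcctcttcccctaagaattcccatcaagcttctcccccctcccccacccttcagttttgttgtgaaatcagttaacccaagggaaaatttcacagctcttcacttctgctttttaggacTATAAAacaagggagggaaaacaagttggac
Il18 (chr9:50554450-50554699, plus strand): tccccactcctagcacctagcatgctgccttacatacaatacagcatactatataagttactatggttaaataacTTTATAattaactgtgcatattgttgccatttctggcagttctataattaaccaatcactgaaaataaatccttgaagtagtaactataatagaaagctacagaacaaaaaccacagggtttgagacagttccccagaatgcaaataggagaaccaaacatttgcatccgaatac
Aim2 (chr1:173420354-173420603, plus strand): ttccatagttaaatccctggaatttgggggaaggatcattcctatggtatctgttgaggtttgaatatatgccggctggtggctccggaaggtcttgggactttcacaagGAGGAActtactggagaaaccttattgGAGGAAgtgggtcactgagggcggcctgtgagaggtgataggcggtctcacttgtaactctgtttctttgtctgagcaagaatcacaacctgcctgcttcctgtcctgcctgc

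The motifs, searched on both strands, were GAGGAA (bound by the myeloid and B cell factor PU.1), GAAANNGAA (an interferon response core), TTCNNNGAA (bound by STAT factors) and TATAAA (the TATA box). The TATA box stood at -32 to -27 in Il1a and at -31 to -26 in Il1b, counted back from the start, and 12.4% of 32817 mouse promoter windows of this length hold that motif on either strand. In Il1a a PU.1 motif stood just before it, at -41 to -36. The TATA match of Il18 lay farther away, at -175 to -170, on the other strand. Aim2 held the PU.1 motif at -140 to -135 and at -113 to -108, and 23.3% of all windows hold it. Of the genes not printed, Casp1, Pycard and 1 of the windows of Nlrp3 held the PU.1 motif and Il1r2 the STAT motif, which 7.01% of windows hold. No window of the 9 genes held the interferon response core, found in 7.12% of windows, and none of the matches overlapped another. The RefSeq start of Il18 lies upstream of the GENCODE gene start, so its window rests on RefSeq alone. The Aim2 window, from 173420354, lies inside the GENCODE span of that gene, which begins farther upstream at 173350879. A match is a description of letters and says nothing of binding in these cells.

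After 24 h the inflammasome sensor Aim2, the adaptor Pycard and the protease Casp1 were the most abundant of the 9 transcripts, and all 3 were higher than in the fresh cells. The cytokine transcript Il18 was lower at day 1 in the deposited values. With every library brought to the same sum Il18 was not lower (log2 change 0.077). Il1b was listed at 0 at day 0 and was low but present in all day 1 libraries, while Il1a and Nlrp3 were close to 0 throughout. Levels are the deposited FPKM, a measure scaled by transcript length and library size. The library sums of these values still differ. Over a common sum they stand at factors of 5.12 at day 0 and 0.722, 0.641 and 0.580 in day 1 replicates 1, 2 and 3. Changes were tested with limma, a linear model fitted to log2(FPKM + 1) across the table with Benjamini-Hochberg adjustment, and a call is an adjusted p under 0.05. Of the 9 genes, 7 reached the FPKM of 1 in a library needed for testing, 4 of them rose and 1 fell, with Il1b among the 4 although its day 1 level would have given few fragments at day 0. Of all 13903 genes tested, 35.0% rose and 19.0% fell, 54.0% in all, so the count of called members is no result about these genes. The authors' deposited table, which calls 0.280% of all genes higher and 2.53% lower (2.81% in all) at a false discovery rate under 0.05, calls none of the 9. A day 0 value below every day 1 library was found for 48.6% of all genes, and one above every day 1 library for 25.4%.

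**Figure D1:**
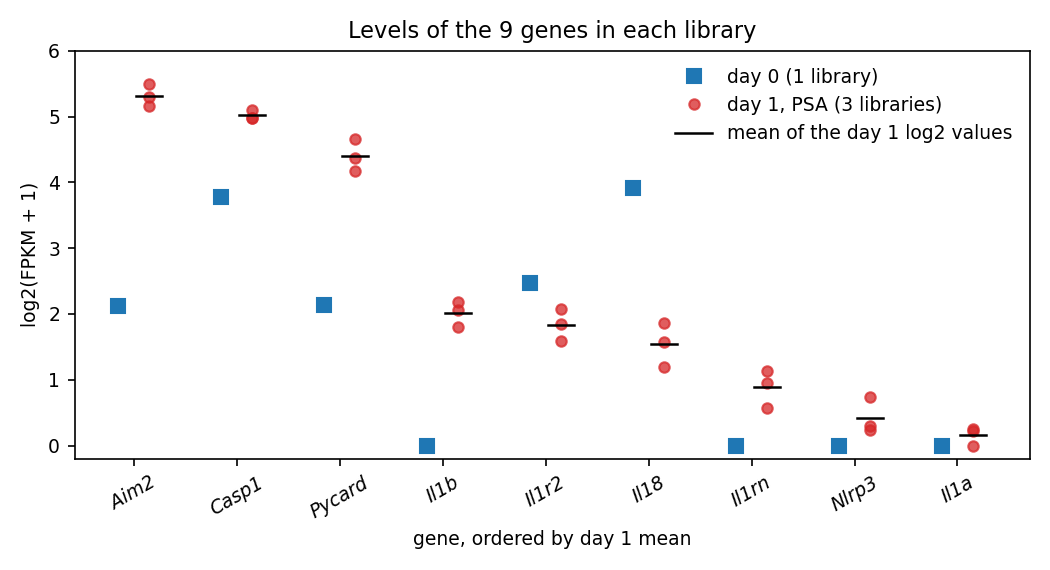
Each point is the log2(FPKM + 1) of a gene in 1 library, at day 0 (squares) and in the 3 day 1 libraries (circles, with a bar at the mean of the log2 values). Aim2, Pycard and Casp1 stand above their day 0 values in all 3 day 1 libraries, Il18 stands below its day 0 value in all 3, and Il1b, Il1rn, Nlrp3 and Il1a are listed at 0 at day 0.

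The day 0 library held by far the fewest fragments per unit of deposited FPKM. Low values of single-transcript genes fell on steps of whole fragments. By these steps, the same FPKM stood for 14.1, 15.9 and 22.0 times as many fragments in day 1 replicates 1, 2 and 3. These ratios include the library factors of the deposited scale (5.12 at day 0 and 0.722, 0.641 and 0.580 at day 1). They are therefore not ratios of total reads, and the part of composition in them was not tested. In a transcript of 2 kb, a single day 0 fragment is worth an FPKM of 2.37, and a floor of 3 fragments is an FPKM of 7.11 there against 0.503, 0.448 and 0.323 at day 1. Only Il18 and Casp1 exceeded that day 0 value among the 9 genes. Genes listed at 0 numbered 7378 at day 0, among them Rps27, a ribosomal protein gene used by every cell, so a 0 at day 0 does not show absence. The day 0 library also stood apart in composition: protein-coding genes held 11.5% of its summed FPKM, against 80.2%, 82.2% and 83.4% in day 1 replicates 1, 2 and 3. This difference lies beside every change given here, and its part in them was not tested. Of these 7378 genes, 2711 (36.7%) have a negative log2 fold change, that is, a higher level at day 0, in the table the authors deposited. As a check of the MHC class II label, Cd74 (the invariant chain) had FPKMs of 2936 at day 0 and 8316, 8399 and 7453 at day 1. Fewer cells of a type and less RNA per cell cannot be told apart in these bulk samples.

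Aim2 encodes a sensor of cytosolic DNA (chromosome 1, 173350879 to 173466040, GRCm38, plus strand). Its FPKM was 3.33 at day 0 and 34.7, 38.1 and 44.1 at day 1, so every day 1 library lay above day 0. The day 1 mean of 39.0 ± 4.8 (SD, n = 3) was 11.7-fold the day 0 value, and limma put the log2 change at 3.20 ± 0.18 (SE, adjusted p = 0.0039). At the day 1 level about 28.8 fragments would have been counted at day 0, against about 2.46 estimated there. Fragment figures here and below use all annotated exons of a gene, 3501 nt for Aim2, and are therefore upper estimates. In the authors' deposited table the log2 fold change of Aim2 is positive but smaller, 0.86, with a false discovery rate of 0.637. The genomic span of Aim2 overlaps Cadm3 on the other strand, and the strand handling of the counting is not given in the sources used here.

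Pycard encodes ASC, the adaptor that links sensors to caspase-1 (chromosome 7, 127989708 to 127993867, minus strand). At day 0 its FPKM was 3.38, and the day 1 libraries had 24.2, 19.7 and 17.1. All day 1 values were above day 0, with a mean of 20.3 ± 3.6 (SD, n = 3), 6.01-fold the day 0 value, and limma estimated a log2 change of 2.27 ± 0.24 (SE, adjusted p = 0.0084). The authors' deposited table gives a log2 fold change of -0.099 with a false discovery rate of 1, so the rise is seen in the FPKM values and not in that table. About 2.71 fragments stand behind the day 0 value, an upper estimate because it uses all annotated exons of the gene, 3800 nt.

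Casp1 encodes caspase-1 (chromosome 9, 5298517 to 5307265, plus strand). Its FPKM was 12.7 at day 0, about 4.0 fragments, and 30.5, 33.4 and 30.4 at day 1. The day 1 libraries lay close together and all above day 0, at 31.4 ± 1.7 (SD, n = 3), 2.48-fold the day 0 value (limma log2 change 1.25 ± 0.12, SE, adjusted p = 0.0071). In the authors' deposited table the log2 fold change is 0.47, with a false discovery rate of 0.947. The calls of Aim2, Pycard and Casp1 held under every alternative setting, with adjusted p values of at most 0.0483. Their sizes depended on the setting. The log2 change ranged from 2.40 to 5.21 for Aim2, from 1.59 to 4.28 for Pycard and from 1.04 to 3.84 for Casp1, in each case lowest with a pseudocount of 5 and highest on the TPM scale, where every library has the same sum. The folds given above therefore hold for the deposited FPKM scale only.

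Nlrp3 encodes the sensor of membrane damage and ion flux (chromosome 11, 59541568 to 59566956, plus strand). Day 0 lists it at 0, and its day 1 FPKMs were 0.173, 0.224 and 0.667, which is about 2.09, 3.04 and 12.6 fragments. Day 1 replicate 3 was the highest, and the other libraries were near 3 fragments. Nlrp3 did not reach the level needed for testing. The day 1 level corresponds to about 0.304 fragments at the depth of day 0, so a difference from day 0 was not detectable at this depth. The authors' deposited table has a log2 fold change of -1.68, not called.

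Il18 was the only member that fell. It encodes the IL-18 precursor (chromosome 9, 50554827 to 50581840, plus strand). Its FPKM was 14.0 at day 0 and 1.99, 2.64 and 1.28 at day 1. All day 1 values were below day 0, with a mean of 1.97 ± 0.68 (SD, n = 3), 7.13-fold lower, and limma put the log2 change at -2.37 ± 0.34 (SE, adjusted p = 0.014). The authors' deposited table gives a log2 fold change of -2.70, the lowest of the 9 genes, with a p-value of 0.0021 and a false discovery rate of 0.0686, which misses its threshold. The day 0 value stands for about 3.06 fragments. The call ended without day 1 replicate 1 (adjusted p = 0.0537), and on the TPM scale the log2 change was 0.077 (adjusted p = 0.864). Il18 overlaps Bco2 and Tex12 on the other strand.

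Il1b encodes the IL-1 beta precursor (chromosome 2, 129364570 to 129371139, minus strand). Its FPKM was 0 in the day 0 library, while day 1 held 2.49, 3.52 and 3.19, about 14.1, 22.5 and 28.2 fragments. Every day 1 library lay above 0, and limma called a rise (log2 change 2.01 ± 0.23, SE, adjusted p = 0.0093). At that level only about 1.23 fragments would have been counted at day 0, so the listed 0 does not show a lower level there. The authors' deposited table gives a log2 fold change of -1.32, in the opposite direction and not called (false discovery rate 0.897). The direction of Il1b therefore depends on which deposited values are read. An antisense gene, Il1bos, overlaps it.

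Il1a, which encodes IL-1 alpha (chromosome 2, 129299610 to 129309972, minus strand), had day 1 FPKMs of 0.166, 0.186 and 0, and stood at 0 in the day 0 library. The 2 values above 0 stand for about 0.976 and 1.23 fragments, so Il1a was at the limit of detection in every library. It was not tested, and the authors' deposited table gives a log2 fold change of -2.23 with a false discovery rate of 1.

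Il1rn encodes the secreted and intracellular receptor antagonist (chromosome 2, 24336853 to 24351494, plus strand). With a day 0 value of 0, it reached FPKMs of 0.939, 0.487 and 1.18 after 24 h. Its log2 change of 0.88 ± 0.30 (SE) missed the threshold (limma adjusted p = 0.087), and with a pseudocount of 0.1 it passed (log2 change 3.20, adjusted p = 0.0271). The authors' deposited table gives 0.80, not called. Il1b exceeded Il1rn in every day 1 library, by ratios of FPKM of 2.65, 7.23 and 2.70, and the ratio was highest in day 1 replicate 2, where Il1b was highest and Il1rn lowest.

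Il1r2 encodes the decoy receptor, which binds IL-1 without signalling (chromosome 1, 40074079 to 40125231, plus strand). Its day 0 FPKM was 4.56, about 1.84 fragments, against 3.23, 2.0 and 2.59 in the day 1 libraries. The day 1 libraries were all lower, but the log2 change of -0.64 ± 0.26 (SE) missed the threshold (limma adjusted p = 0.127). On the TPM scale the direction turned and Il1r2 passed as higher at day 1 (log2 change 1.396, adjusted p = 0.0254). The authors' deposited table gives 1.32, the opposite sign, with a false discovery rate of 1.

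**Figure D2:**
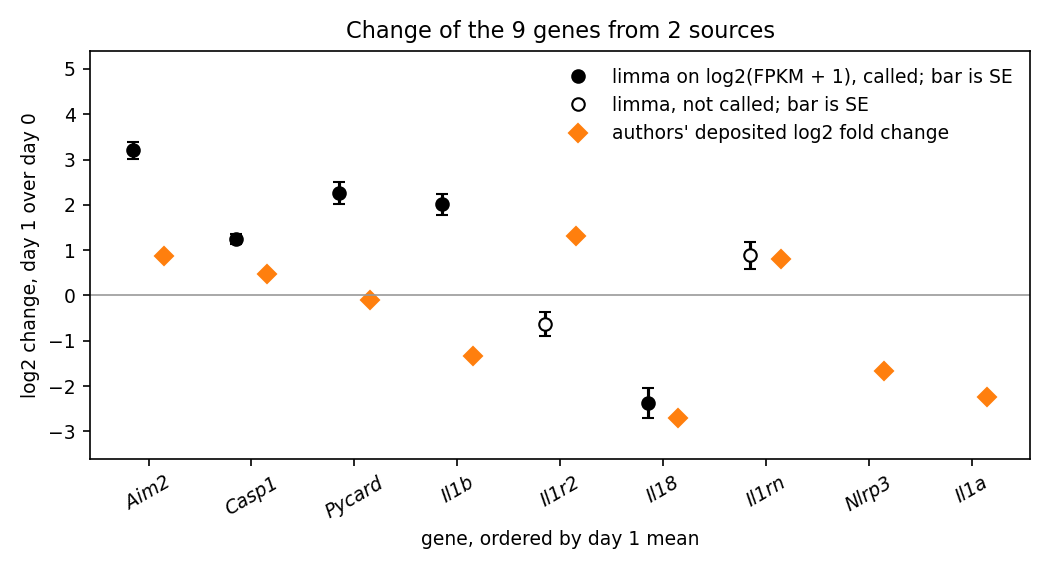
The log2 change of day 1 over day 0 is shown for each gene from limma on log2(FPKM + 1) (circles with SE, filled where called) and from the authors' deposited table (diamonds). Both sources put Aim2, Casp1 and Il1rn above 0 and Il18 below it, and they differ in sign for Pycard, Il1b and Il1r2.

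The 2 sources gave the same sign for 4 of the 7 tested genes. Over the whole table, 811 of the 4869 genes that rose in limma, 16.7%, are negative in the authors' deposited table, and 195 of the 2640 that fell, 7.39%, are positive. Over all tested genes the limma changes had a median of 0.59, and over those above 0 at day 0 one of 0.018. With 1 library against 3, an exact permutation test of a single gene cannot give a two-sided p below 0.25, so the limma p-values rest on the assumption that the day 0 library varies like the day 1 libraries.

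The order of day 1 levels was Aim2, Casp1, Pycard, Il1b, Il1r2, Il18, Il1rn, Nlrp3 and Il1a. The day 1 ranges of the first 3 did not overlap one another, and the lowest Pycard value, 17.1, was well above the highest Il1b value, 3.52. Il1b overlapped Il1r2, and Il1r2 overlapped Il18, so these neighbours did not differ beyond their spread. The ranges of Il1rn and Nlrp3 overlapped too, as did those of Nlrp3 and Il1a. Within each day 1 library, however, Il1rn exceeded Nlrp3 and Nlrp3 exceeded Il1a. About 2.09 and 3.04 fragments stand behind Nlrp3 in day 1 replicates 1 and 2.

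Ratios between genes in the same library do not depend on how the libraries were scaled to each other. Aim2 stood at 0.263 of Casp1 at day 0 and at 1.14, 1.14 and 1.45 of it at day 1, so the sensor transcript passed the protease transcript in every day 1 library. Pycard went from 0.267 of Casp1 to 0.793, 0.591 and 0.562. Il18 stood at 1.11 of Casp1 at day 0 and at 0.0651, 0.0792 and 0.0420 at day 1. Il1r2 went from 0.360 of Casp1 to 0.106, 0.0600 and 0.0852. In each of these 4 ratios the day 0 library lay outside the day 1 range, but each day 0 ratio rests on about 4.0 fragments of Casp1 and fewer of the other gene. Against 0.47 for Casp1, the authors' deposited table gives log2 fold changes of 0.86 for Aim2, -0.099 for Pycard, -2.70 for Il18 and 1.32 for Il1r2. Relative to Casp1, Pycard and Il1r2 therefore moved the opposite way there, and none of these genes is called.

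**Figure D3:**
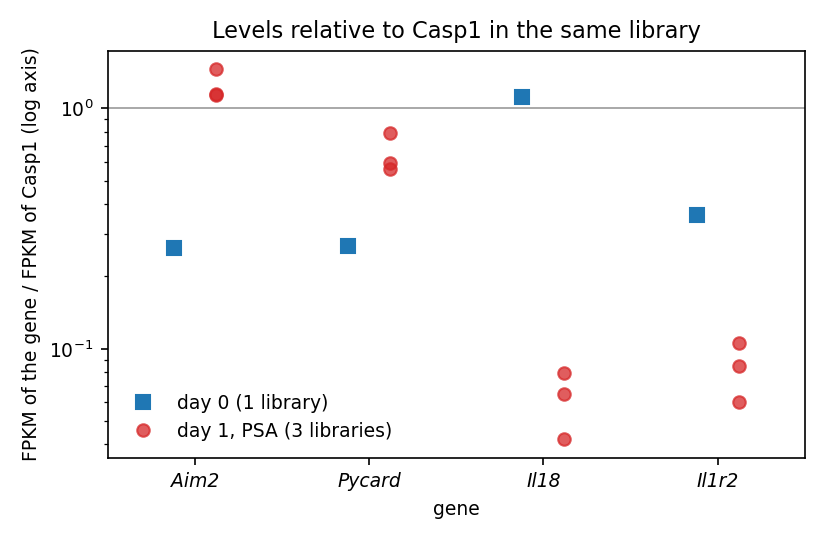
The FPKM of Aim2, Pycard, Il18 and Il1r2 divided by that of Casp1 in the same library is shown on a log axis for day 0 (squares) and the 3 day 1 libraries (circles). The ratios of Aim2 and Pycard are above their day 0 values in all 3 day 1 libraries, and those of Il18 and Il1r2 are below.

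Among other genes of the family, IL-1 receptor and ligand genes changed in both directions. Of 7 other ligands and antagonists listed, 2 were in the table and 1 rose. That gene, Il18bp, encodes the secreted protein that neutralises IL-18, and had FPKMs of 4.09, 2.98 and 2.31 at day 1 against a listed 0, a call that ended without day 1 replicate 2. About 2.0 fragments would have been counted at day 0 at that level. Of 8 other receptors, 6 were in the table and 4 were tested, 2 of which rose and 1 fell. Of all tested genes 35.0% rose and 19.0% fell, so these small counts are no result about the family. Sigirr, an inhibitory receptor of the family, rose from 2.36 to 20.1, 20.6 and 17.4 (log2 change 2.60 ± 0.16, SE, limma adjusted p = 0.0040). The day 0 value of Sigirr stands for about 1.51 fragments. Il1rap, the accessory chain shared by several receptors of the family, was listed at 0 and then at 1.67, 1.55 and 1.58, and passed the test except without day 1 replicate 2, with about 3.83 fragments to be counted at day 0 at the day 1 level. Il18rap, the accessory chain of the IL-18 receptor, fell from 2.87 to 1.41, 1.13 and 1.17, a call that ended without any 1 day 1 library and with equal protein-coding sums (adjusted p = 0.0545). Il1r1, the signalling receptor for IL-1, was not tested, being listed at 0 in 3 libraries and at 0.072 in day 1 replicate 1. Without day 1 replicate 2, 1 of these ligand and receptor genes was called instead of 4, and 3942 of all genes instead of 7509. On the TPM scale Il18rap was higher at day 1 (log2 change 0.90, adjusted p = 0.0321). The authors' deposited table calls none of them.

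The other inflammasome sensors were mostly too low to test. Of 11, 10 were in the table and 3 were tested. Nlrc4, which assembles on NAIP sensors of bacterial flagellin and secretion proteins, fell from 7.28 to 2.57, 3.19 and 3.56 (log2 change -1.02 ± 0.21, SE, limma adjusted p = 0.030), a call that ended without day 1 replicate 2, without day 1 replicate 3 and with equal protein-coding sums (adjusted p = 0.09). On the TPM scale it was higher at day 1 (log2 change 1.26, adjusted p = 0.0493). Naip2, listed at 0 in fresh cells, had FPKMs of 1.82, 1.07 and 1.55 after culture, and passed the test, but in none of the fits that left out a day 1 library. At the day 1 level about 1.52 fragments of Naip2 would have been counted at day 0, so the listed 0 does not show a rise. The Naip genes are close copies of each other, so their values are uncertain.

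Among regulators and effectors of the inflammasome, 6 of 13 genes rose and 1 fell, beside 35.0% and 19.0% of all tested genes, with a median log2 change of 1.16 against 0.59 for all tested genes. Casp4, which encodes the caspase-11 protein that senses cytosolic lipopolysaccharide in mice, had the largest change, from an FPKM of 3.33 to 50.3, 52.1 and 48.4. Its day 1 mean was 15.1-fold the day 0 value (log2 change 3.56 ± 0.11, SE, limma adjusted p = 0.0029), and the authors' deposited table gives 1.39 with a false discovery rate of 0.17. Ninj1, which ruptures the plasma membrane in lytic cell death, rose from 4.05 to 30.9, 32.4 and 29.3. Panx1, a membrane channel, rose from 2.56 to 13.1, 10.1 and 15.4, a call that ended without day 1 replicate 1. Casp8, an initiator caspase of cell death, rose from 9.74 to 31.4, 35.5 and 35.4. The day 0 values of Casp4, Ninj1, Panx1 and Casp8 stand for about 2.61, 1.34, 3.26 and 5.94 fragments. The gene that fell was Gsdme, a pore-forming relative of gasdermin D, from 3.74 to 1.52, 1.42 and 0.969, a call that ended without any 1 day 1 library and turned positive on the TPM scale (log2 change 0.79, adjusted p = 0.0596). Over the 16 tested sensors, regulators and effectors together, 7 rose and 2 fell, against 13 and 0 on the TPM scale. Most genes rose on that scale, 9621 of all 13903 tested, and 582 fell, so the larger count there is no result about these genes. The authors' deposited table calls none of the 13, and their median log2 fold change there is -0.086.

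In IL-1 receptor signalling 4 of 12 genes rose and 2 fell, close to the shares of all tested genes (35.0% and 19.0%), so the count is no result about this pathway. With equal protein-coding sums 3 rose and 1 fell. Irak2, a kinase-like protein of the receptor complex, was the most changed of those that fell, from 91.7 to 25.8, 25.3 and 30.4 (log2 change -1.72 ± 0.16, SE, limma adjusted p = 0.0067), and about 85.4 fragments stand behind its day 0 value. Map3k7, which encodes the kinase TAK1, rose from 0.871 to 8.16, 8.0 and 12.9. Tollip, an adaptor that restrains the pathway, rose from 1.23 to 5.22, 6.46 and 6.47. Tab2, which links TAK1 to ubiquitin chains, rose from 8.51 to 18.9, 21.2 and 23.3. The day 0 values of Map3k7, Tollip and Tab2 stand for about 1.18, 1.31 and 11.0 fragments. The calls of Map3k7 and Tab2 ended without day 1 replicate 2, and 2 of the 12 genes were called without that library. On the TPM scale all 12 rose, Irak2 included (log2 change 1.19), beside 9621 of all 13903 tested genes. Myd88, the adaptor used by these receptors, was at 13.8 and then 13.5, 21.4 and 25.9, and did not pass the test. The authors' deposited table calls none of the 12.

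**Figure D4:**
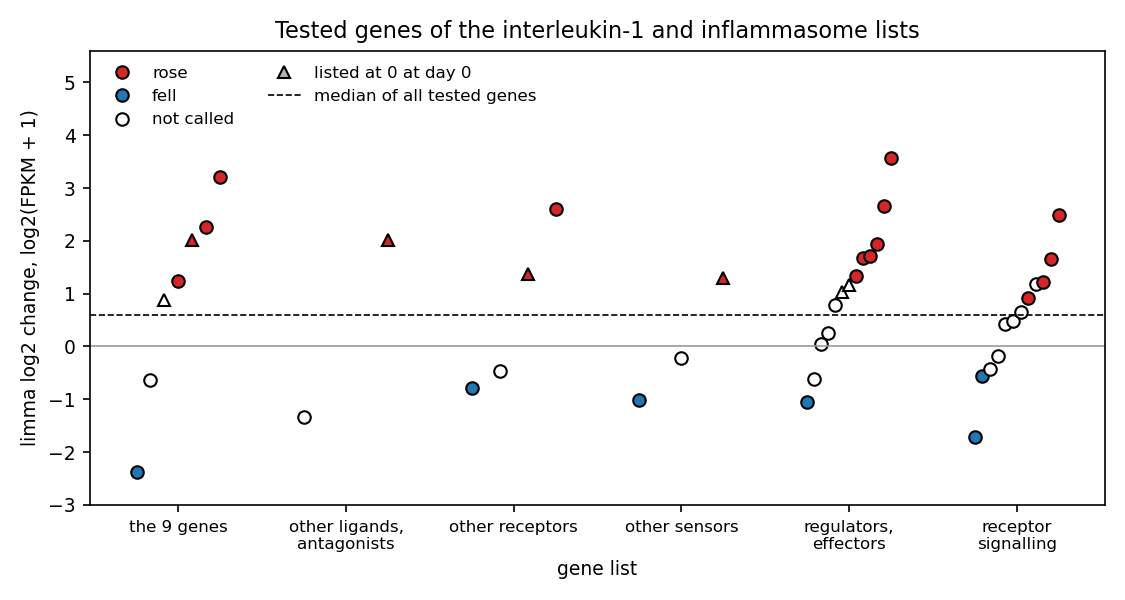
Each symbol is the limma log2 change of a tested gene in 1 of 6 lists, coloured by call, with triangles for genes listed at 0 at day 0 and a dashed line at 0.59, the median of all tested genes. The list of the 9 genes spans from Il18 at -2.37 to Aim2 at 3.20, and the largest rise in the regulators and effectors is that of Casp4 at 3.56.

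Cell type markers moved between the groups as well, in the main limma fit, the only one given for them. Beside the counts below, 35.0% of all tested genes rose and 19.0% fell, so counts near these shares are no result about the markers. On the TPM scale 9621 of all genes rose and 582 fell, and the marker calls on that scale are not given here. Of 13 tested macrophage and monocyte markers, 8 fell and 3 rose, and the list's summed FPKM was 167 at day 0 and 148 to 156 at day 1. The complement genes C1qa and C1qc, marks of tissue macrophages, fell from 23.2 to 0.982, 0.577 and 0.209 and from 23.9 to 1.13, 0.250 and 0.360, and Vcam1 fell from 6.87 to 0.094, 0.257 and 0.122. Those that rose were Lyz2, from 29.1 to 69.3, 80.9 and 77.3, Cd68 and Adgre1. In the authors' deposited table Lyz2 has a log2 fold change of -0.44, the opposite sign. Cd68 and Adgre1 are positive there, at 0.33 and 1.23, and none of these 3 is called. Of 9 tested dendritic cell markers, 5 fell and 2 rose, and the list's sum was 289 at day 0 and 138 to 152 at day 1. Siglech alone held 222 of the day 0 sum, and 10.8, 16.2 and 13.6 of the day 1 sums. Ccr7, 1 of the 2 that rose, went from 26.2 to 100, 108 and 107, so the fall of the sum rests on Siglech. Of 12 tested neutrophil markers, 7 were called higher at day 1 and 1 lower, with sums of 23.1 and 50.7 to 73.1. Each of the 7, S100a9 and Mpo among them, was listed at 0 at day 0, where its day 1 level would have given only about 0.245 to 2.17 fragments, so a rise of these genes is not shown. Of 10 B cell markers, 5 rose and 3 fell, and their sums were the largest of the marker lists, 3672 at day 0 and 3457 to 4062 at day 1. Of 9 tested T and NK cell markers, 2 rose and 3 fell, with sums of 131 and 110 to 139. The authors' deposited table calls 7 macrophage and monocyte, 3 dendritic cell, 2 B cell and 2 T and NK cell markers lower. It calls no neutrophil marker lower and no marker of any list higher. Of the listed markers, Mpo of the neutrophil list was at 0 and then at 1.10, 1.17 and 1.76, and the monocyte gene Cd14, not called, was at 0 and then at 0.852, 1.70 and 1.78. The part of these markers in the changes of the 9 genes was not tested.

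Patterns closest to those of the members were sought among the genes above 0 in all 4 libraries, by Euclidean distance of log2(FPKM + 1) over the 4 libraries. Casp1 was closest to Scamp2 (distance 0.086), Zfand3 (0.13) and Hsd17b11 (0.167). Aim2 was closest to Rpf1 (0.192), Dapk3 (0.265) and Dalrd3 (0.301), and Pycard to Tmem149 (0.314), Ppif (0.335) and Pigo (0.335). Il18 was closest to Cenpk (0.331), Ebpl (0.423) and Tnfrsf1a (0.467), and Il1r2 to Dcaf10 (0.145), Wdr44 (0.15) and Pou2f1 (0.151). These likenesses are descriptions over 4 libraries of which 3 are of the same group.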

How the data were processed

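The 4 libraries of the series were used, 1 of day 0 and 3 of day 1. Per the labels' protocols, RNA was purified with an RNeasy kit, read on a HiSeq, trimmed of the 3' adaptor and filtered to reads of 10 nt or more, and the authors made FPKM values with Cufflinks. The submitters' processing notes name TopHat 1.4.1, Cufflinks 2.2.1 and build GRCm38.p6. The annotation release is not given in the sources used here. In each library all low FPKM values were whole multiples of a step to within the rounding of the deposited decimals, and each library summed to between 99890620 and 99956019 steps, so the deposited FPKM values are proportional to TPM with 2 decimals times a factor per library, 5.12 at day 0 and 0.722, 0.641 and 0.580 at day 1. With these factors protein-coding genes summed to 590958 at day 0 and 578666, 526744 and 483405 at day 1, which is 11.5% and 80.2%, 82.2% and 83.4% of the summed FPKM. What set the factors is not given in the sources used here. Per the file headers, the authors also deposited for each gene a log2 fold change, a mean log2 abundance, a p-value and its false discovery rate. Cuffdiff is the test in the labels, but no header names one, so these columns appear in the text under the name of the authors' deposited table.

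Changes were tested with limma 3.58.1 (trend, R 4.3.3) on log2(FPKM + 1). A gene was tested if any library reached an FPKM of 1, which 13903 genes did. A log2 change on this scale understates the change of low genes, and a fold is a ratio of FPKM means. The day 0 library was assumed to vary like day 1, with 2 residual and 1.27 prior degrees of freedom. Fragments were estimated from the step that 1 fragment is worth in single-transcript genes of GENCODE M21 (GRCm38), times the length of all annotated exons. At day 0 65.1% of the low values lay within 0.1 of a whole fragment, where chance gives 20%. Such floors and estimates cover counting error only. The members, lists, tests and alternatives were chosen with earlier results of these data known. Named genes were all 9 members and up to 4 called genes per pathway list with the largest change. Genes named beside these (Il1r1, Myd88, markers) were chosen after their values were seen.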

Additional observations from a re-analysis of the deposited data

How the results depend on the processing

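The alternatives were pseudocounts of 0.1 and 5, no filter, testing only genes above 0 at day 0, a median change of 0, equal protein-coding sums, limma without trend, leaving out each day 1 library, and, chosen after seeing the data, the TPM scale, on which every library has the same sum. Counts of called members were between 4 and 6 in all of them, against 5. Leaving out 1 day 1 library gave 3942 to 6172 called genes against 7509, 4 to 5 called members, 1 to 3 called genes against 4 for the other IL-1 family ligands and receptors, 6 to 8 against 9 for the other inflammasome genes and 2 to 5 against 6 for receptor signalling. Testing only genes above 0 at day 0 left 2 called ligand and receptor genes, because it tests fewer genes. On the TPM scale 9621 genes rose and 582 fell, all 12 signalling genes rose, and the log2 changes of Il18 (0.077) and Il1r2 (1.396, now past the threshold) turned positive, because this scale divides day 0 by the largest factor. With equal protein-coding sums 4783 rose and 2193 fell, and with the median set to 0, 4412 and 3120. Leaving out day 1 libraries moved the log2 change of Il18 between -2.53 and -2.19.

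No paired analysis was possible because there is a single day 0 library and its label carries no number. The few fragments per unit of FPKM at day 0 limit every comparison: of the 9 genes only Il18 and Casp1 exceeded an FPKM of 7.11 there.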

Other observations

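The mean log2 abundance in the authors' deposited table was 5.85 for Aim2, 5.63 for Casp1 and 5.11 for Pycard, the same order as the day 1 FPKM values of these 3 genes. For Il1b it was 3.03, for Il18 2.21 and for Il1r2 1.85. Gsdmd, which encodes the pore-forming substrate of caspase-1, had FPKMs of 13.3 at day 0 and 37.3, 32.8 and 34.6 at day 1 (log2 change 1.33 ± 0.13, SE, limma adjusted p = 0.0071). Its day 0 value stands for about 6.66 fragments, and the authors' deposited table gives a log2 fold change of 0.56, not called. It was named after its values were seen.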
